A study of Mus musculus with 25 samples.

Results

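The tissue kallikrein genes that salivary granular ducts are known for were examined in salivary tissue from C57BL/6.NOD-Aec1Aec2 males, a mouse strain that develops a Sjögren's syndrome-like disease with age. The 10 members were taken by gene symbol: Klk1, Klk1b1, Klk1b3, Klk1b5, Klk1b9, Klk1b16, Klk1b22, Klk1b24, Klk1b26 and Klk1b27, of 18194 genes named on the array. Each of the 25 samples was 1 mouse on 1 Affymetrix whole-genome array. The ages were 4 weeks, called a stage before disease in the study, then 8, 12, 16 and 20 weeks, with 5 mice each. Ages were thus compared between mice and no mouse was followed over time. All mice carried the same pair of disease regions, Aec1 and Aec2, derived from the NOD strain, no treatment was given, and no other strain was among the samples, so a difference between ages cannot be told apart from ordinary growth of the gland. RNA came from a piece that held submandibular, sublingual and parotid gland together, with the salivary lymph nodes taken away.

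Tissue kallikreins are secreted serine proteases. In the mouse, Klk1 encodes the true tissue kallikrein, which frees kinins from kininogen, while the Klk1b genes are close copies of it that lie side by side and cut other substrates, among them the precursors of growth factors. In the submandibular gland of male rodents the granular convoluted ducts store these enzymes in secretory granules together with epidermal growth factor. These ducts form at puberty under androgen and thyroid hormone.

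Of the 10 members, 6 had a probe set annotated to that symbol alone (Klk1, Klk1b1, Klk1b5, Klk1b16, Klk1b24 and Klk1b27), through 10 probe sets in all. Another 3 members were present only on probe sets with more than 1 symbol: 1425182_x_at stood for Klk1b9 and Klk1b22 together, both known as binding proteins of epidermal growth factor, and 1419090_x_at stood for Klk1b26, known as a prorenin-converting enzyme, together with Egfbp2. The array annotation counts Egfbp2 as a gene of its own while RefSeq lists that symbol as another name of Klk1b26, so this probe set may stand for Klk1b26 alone, which was not settled here. The signal of both probe sets was kept with the probe set and given to no single gene. Klk1b3 was on no listed probe set and was not analysed here. Of these 12 probe sets, 11 were above the expression cutoff of 3.27, the median of all probe set means on the log2 scale of the array signal, and Klk1 probe set 1460050_x_at was below it, with a mean of 2.93. Of the 11, 5 had the ending x_at, which marks probes that can also bind RNA of other genes, and the share of each copy in a probe set was not measured. In whole-gland RNA, fewer granular duct cells and less kallikrein RNA per cell cannot be told apart.

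The members sit in 1 cluster on mouse chromosome 7, and their promoters are copies of each other. Klk1 lies at chr7:44225360-44229622, Klk1b5 at chr7:44216474-44220703, Klk1b16 at chr7:44122254-44141610, Klk1b24 at chr7:44188234-44192455 and Klk1b1 at chr7:43966751-43971318 (RefSeq, GRCm38.p6, plus strand). The 100 bases just before the transcript start given in the promoter table, which for Klk1b16 and Klk1b24 lies inside the gene's range, are printed for Klk1 and for the 4 Klk1b genes whose signals moved most alike, so that the shared sequence can be seen, with the letters TTTAAA in capitals.
Klk1 (chr7:44225260-44225359): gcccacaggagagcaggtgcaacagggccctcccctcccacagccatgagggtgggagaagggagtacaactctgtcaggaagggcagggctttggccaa
Klk1b1 (chr7:43966651-43966750): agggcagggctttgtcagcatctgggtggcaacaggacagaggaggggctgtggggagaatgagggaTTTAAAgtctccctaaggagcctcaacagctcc
Klk1b5 (chr7:44216374-44216473): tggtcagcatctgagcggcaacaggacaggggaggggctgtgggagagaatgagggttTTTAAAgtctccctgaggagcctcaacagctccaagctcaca
Klk1b16 (chr7:44137190-44137289): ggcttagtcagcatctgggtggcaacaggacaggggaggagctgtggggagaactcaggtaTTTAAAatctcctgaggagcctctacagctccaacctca
Klk1b24 (chr7:44188136-44188235): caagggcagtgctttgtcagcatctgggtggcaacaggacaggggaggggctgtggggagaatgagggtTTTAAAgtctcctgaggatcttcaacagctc
The letters TTTAAA, which read the same on both strands, began between 13 and 42 bases before the start in the 9 Klk1b members. They were in the 250 bases before the start of 9 of the 10 members, all but Klk1, and of 12.1% of 32851 promoters in the table. The end of the printed Klk1 bases resembles the beginning of those of Klk1b1, so the windows are not in register. Bases after the start were not searched, so Klk1 cannot be said to lack these letters. Local alignment of those 250 bases gave 75.0 to 90.7% identity between pairs of Klk1b members (36 pairs, median 82.1%) and 75.4 to 85.9% between Klk1 and a Klk1b member (9 pairs, median 79.9%).

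Klk1 fell with age. On its brightest probe set, 1415837_at, the log2 signal was 16.30, 16.51, 16.47, 16.36 and 16.41 in the mice of 4 weeks, 16.15, 16.07, 16.04, 16.03 and 15.98 at 8 weeks, 15.85, 15.91, 15.93, 15.90 and 15.95 at 12 weeks, 15.75, 15.56, 15.79, 15.69 and 15.93 at 16 weeks, and 15.82, 15.85, 15.34, 15.77 and 15.74 at 20 weeks. Each mouse of 8 weeks or more lay below each mouse of 4 weeks, and the mice of 16 and 20 weeks were more spread than those of 12 weeks. Against 4 weeks the difference was -0.35 at 8 weeks (limma SE 0.077, adjusted p = 0.0238), -0.50 at 12 weeks (adjusted p = 0.000845), -0.66 at 16 weeks (adjusted p = 3.37e-05) and -0.70 at 20 weeks (adjusted p = 1.92e-05), which at 20 weeks is a signal of 0.614 times that at 4 weeks. These comparisons all rest on 1 set of 5 mice of 4 weeks. Their values on this probe set lay near the highest of their arrays (16.72 to 16.84), and how the top of the scale bears on the differences was not measured. Among all probe sets, 3.83%, 26.8%, 1.62% and 0.859% lay below 4 weeks with no overlap at 8, 12, 16 and 20 weeks. The second bright probe set, 1448107_x_at, gave -0.37, -0.49, -0.63 and -0.67 (adjusted p = 0.00616, 0.000262, 1.47e-05 and 7.79e-06), again with no overlap with 4 weeks at any later age.

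**Figure D1:**
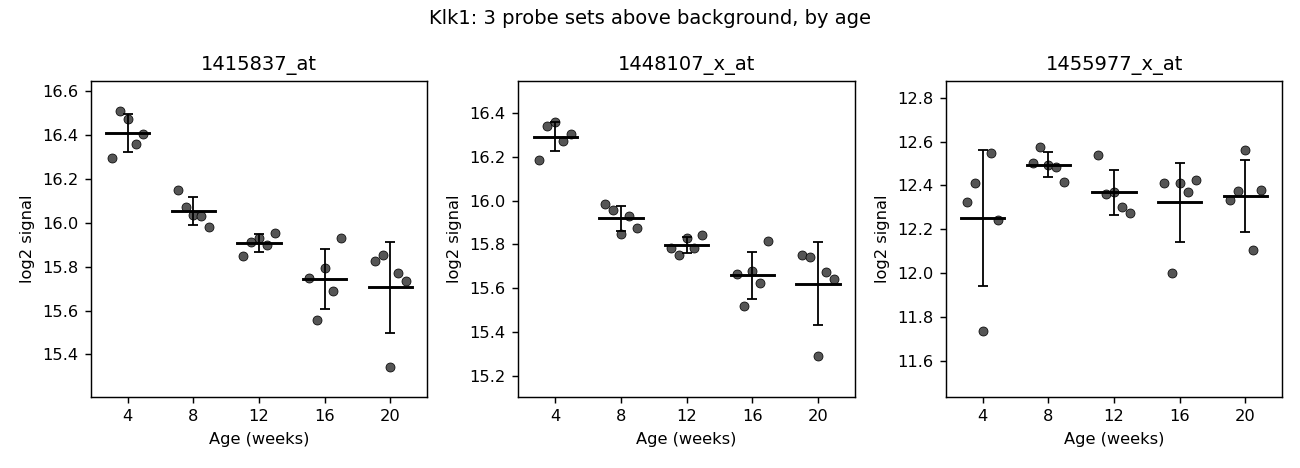
Log2 signal of the 3 Klk1 probe sets above the expression cutoff (panels, each with a y axis of the same length) against age in weeks, with 1 point per mouse and the mean ± SD of 5 mice. On 1415837_at and 1448107_x_at the 4-week mice lie above all mice of later ages, while on 1455977_x_at the ages overlap.

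The third Klk1 probe set behaved otherwise. On 1455977_x_at, the dimmest of those above the cutoff, the mice of 4 weeks spanned 11.73 to 12.55 and those of 20 weeks 12.11 to 12.56, and the differences from 4 weeks were 0.24, 0.12, 0.07 and 0.10 at 8, 12, 16 and 20 weeks, none of which passed the test (adjusted p = 0.478 to 0.958) and which after quantile normalization were 0.14, -0.08, -0.02 and 0.02. Over the 25 arrays its signal correlated with the bright probe sets at r = -0.15 and -0.18, against 0.99 between the bright ones. The mean over the 3 probe sets, which is the value used for the gene, differed less between ages than the bright probe sets did. It averaged 14.98 ± 0.09 at 4 weeks, 14.82 ± 0.05 at 8 weeks, 14.69 ± 0.02 at 12 weeks, 14.58 ± 0.13 at 16 weeks and 14.56 ± 0.10 at 20 weeks (SD, n = 5 each).

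As a gene, Klk1 fell at 12 weeks (-0.29, SE 0.059, adjusted p = 0.00463), 16 weeks (-0.41, adjusted p = 0.000278) and 20 weeks (-0.42, adjusted p = 0.000228), with all 5 mice below all 5 of 4 weeks at each of these ages. At 8 weeks the difference was -0.16 and did not pass (adjusted p = 0.177), with 3 of 5 mice below those of 4 weeks. Among all genes, 0.78%, 1.36%, 1.68% and 1.52% fell at 8, 12, 16 and 20 weeks. Shares that lay below 4 weeks with no overlap were 4.05%, 21.1%, 2.16% and 1.35%. Klk1 was also the member that passed the moderated F-test over the 5 ages (adjusted p = 0.000414), as 4.66% of genes did, and the member whose B-statistic, the log odds of change that the study thresholded at 1.5, was above that level (8.77 for the linear term, against 1.92% of genes above 1.5). The size of the fall depended on scaling: after quantile normalization 1415837_at differed by -0.03, -0.21, -0.33 and -0.43 (adjusted p = 1, 0.185, 0.018 and 0.00305), and 1448107_x_at by -0.17, -0.29, -0.40 and -0.50 (adjusted p = 0.423, 0.0295, 0.00266 and 0.000379). With a variance prior that follows the signal level and is robust to outlying genes, the gene missed the threshold at 12 weeks (adjusted p = 0.0628), and so it did at 20 weeks with only the ages compared in the fit (adjusted p = 0.0533).

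The Klk1b genes did not share that fall. All 5 with a probe set of their own had a higher mean at each later age than at 4 weeks, and the mice of 4 weeks differed widely among themselves. Klk1b1 had 15.28, 14.66, 14.27, 13.72 and 15.17 in mice 1 to 5 of 4 weeks, 15.35, 15.30, 15.28, 15.10 and 15.19 at 8 weeks, 15.32, 15.33, 15.21, 15.26 and 15.18 at 12 weeks, 15.17, 14.86, 15.10, 15.03 and 15.33 at 16 weeks, and 15.29, 15.21, 14.15, 15.14 and 15.19 at 20 weeks. Mice 1 and 5 of 4 weeks were thus inside the range of 8 weeks, mice 2, 3 and 4 were below it, and mouse 4 was the lowest of all 25. The differences from 4 weeks were 0.62, 0.64, 0.48 and 0.38 at 8, 12, 16 and 20 weeks, the first being a signal 1.54 times that at 4 weeks, and none passed (SE 0.23, adjusted p = 0.178, 0.0952, 0.343 and 0.6).

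**Figure D2:**
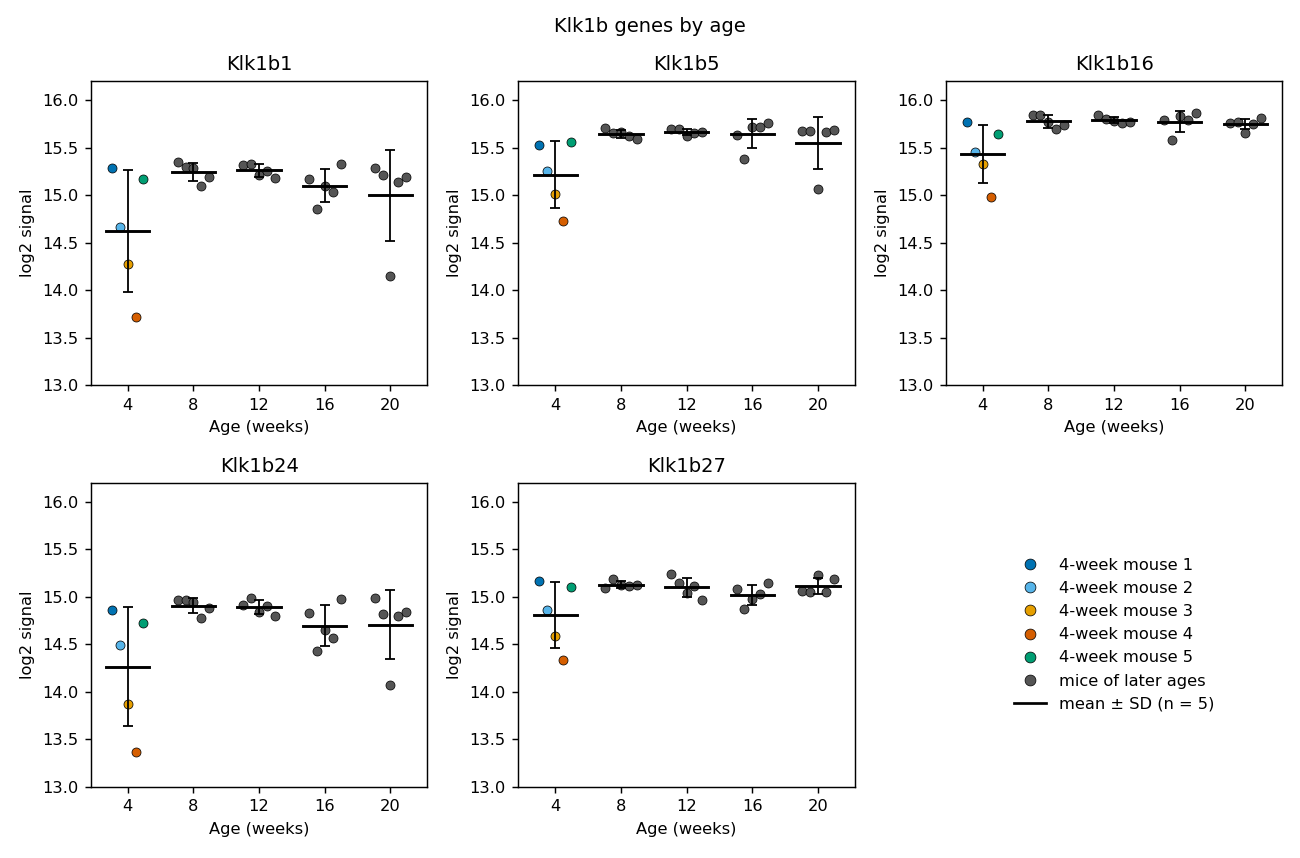
Log2 signal of 5 Klk1b genes (panels, common y axis) against age in weeks, 1 point per mouse with the mean ± SD of 5 mice, and the 4-week mice coloured by number. Mice 1 and 5 of 4 weeks lie near the later ages in each panel and mouse 4 is lowest, as in Klk1b24 with 14.86 and 14.73 against 13.36.

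Klk1b24 repeated the pattern, with 14.86, 14.49, 13.88, 13.36 and 14.73 in mice 1 to 5 of 4 weeks against means of 14.91 ± 0.08 at 8 weeks, 14.89 ± 0.07 at 12 weeks, 14.69 ± 0.22 at 16 weeks and 14.70 ± 0.36 at 20 weeks. Its differences from 4 weeks were 0.64, 0.63, 0.43 and 0.44 and none passed (adjusted p = 0.122, 0.0773, 0.363 and 0.4). Klk1b27, whose 4-week mice had 15.16, 14.86, 14.58, 14.34 and 15.10, differed by 0.32, 0.29, 0.21 and 0.30, also without passing (adjusted p = 0.141, 0.112, 0.405 and 0.176). In each of these genes some 4-week mice overlapped every later age.

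Klk1b5 and Klk1b16 rose at 12 weeks. Klk1b16, known as gamma-renin, had 15.84, 15.81, 15.78, 15.75 and 15.77 at 12 weeks, against 15.77, 15.45, 15.32, 14.98 and 15.65 in mice 1 to 5 of 4 weeks. The difference was 0.36 (SE 0.095, adjusted p = 0.0252), with 4 of 5 mice above all mice of 4 weeks. Klk1b5, as the mean of 2 probe sets, had 15.69, 15.70, 15.62, 15.65 and 15.66 at 12 weeks, against 15.53, 15.25, 15.01, 14.72 and 15.56 at 4 weeks, a difference of 0.45 with no overlap (SE 0.13, adjusted p = 0.0409). At 8, 16 and 20 weeks Klk1b5 differed from 4 weeks by 0.43, 0.43 and 0.34 (adjusted p = 0.0942, 0.0811 and 0.233) and Klk1b16 by 0.34, 0.34 and 0.31 (adjusted p = 0.0606, 0.0515 and 0.0866), below the threshold for a call in each case. Among all genes 1.48%, 5.66%, 1.71% and 1.14% rose at 8, 12, 16 and 20 weeks. Above 4 weeks with no overlap, as Klk1b5 was at both 8 and 12 weeks, lay 4.58% and 12.5% of genes.

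Counted over the 6 members with values of their own, 0 passed at 8 weeks, 3 at 12 weeks (2 rose and Klk1 fell), 1 at 16 weeks and 1 at 20 weeks (Klk1 both times). The Klk1b part of this count changed with single mice. The share of all genes that passed without a given mouse was not taken, so these changes cannot be read as particular to the kallikreins. Without mouse 1 of 4 weeks 4 members passed at 8 weeks and 6 at 12 weeks, and without mouse 5 these were 2 and 6, whereas without mouse 3 or 4 of 4 weeks, or mouse 1 or 2 of 12 weeks, only Klk1 passed at 12 weeks. Klk1b5 also missed the threshold at 12 weeks without mouse 2 of 4 weeks or without any 1 mouse of 12 weeks (adjusted p = 0.0626 to 0.0967 for these 6). Without mouse 1 or mouse 5 of 4 weeks, or mouse 2 of 16 weeks, 3 members passed at 16 weeks, and at 20 weeks 3 passed without mouse 1 and 2 without mouse 5 of 4 weeks. Leaving out mouse 3 of 20 weeks, the array least like the others of its age (median r 0.887, against 0.973 or more for the other 24), gave 3 members at 8 weeks, 5 at 12 weeks, 3 at 16 weeks and 3 at 20 weeks. With each probe set tested singly over 45037 probe sets, 1448107_x_at and 1415837_at of Klk1 fell at all 4 ages (0.342%, 0.704%, 0.893% and 0.722% of probe sets fell at 8, 12, 16 and 20 weeks), and the Klk1b16 probe set alone rose, at 12 weeks (adjusted p = 0.0358, where 2.81% of probe sets rose). The 2 Klk1b5 probe sets then missed the threshold at 12 weeks, with 0.43 and 0.47 (adjusted p = 0.0694 and 0.0528).

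**Figure D3:**
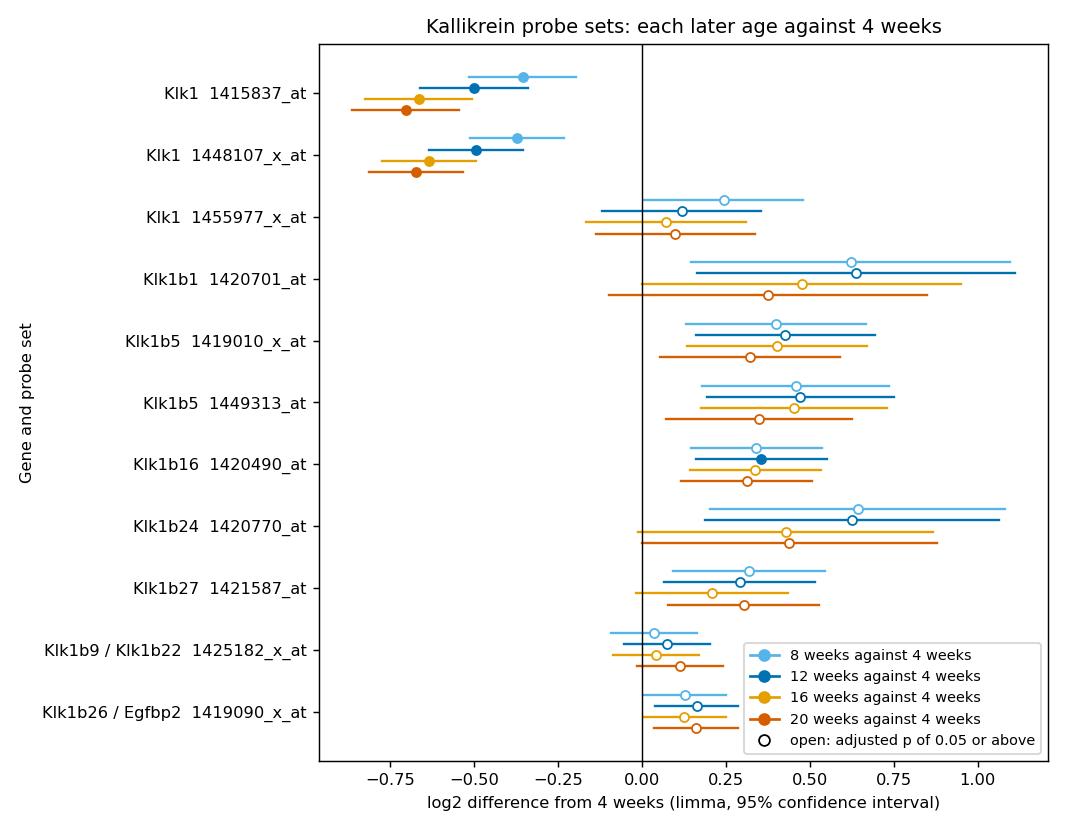
Difference in log2 signal from 4 weeks with its 95% confidence interval (x axis, limma) for the 11 kallikrein probe sets above the expression cutoff (y axis), at 8, 12, 16 and 20 weeks, 5 mice per age. Filled points passed at an adjusted p under 0.05: both bright Klk1 probe sets at each age, lower than 4 weeks, and Klk1b16 at 12 weeks, higher.

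The spread among the mice of 4 weeks was itself wide and had 1 order. The SD of the 5 Klk1b genes was 0.30 to 0.65 at 4 weeks and 0.04 to 0.10 at 8 weeks, 0.03 to 0.10 at 12 weeks, 0.10 to 0.22 at 16 weeks and 0.06 to 0.47 at 20 weeks. On all 8 Klk1b probe sets, shared ones included, mouse 4 was the lowest of the 4-week mice, and on 6 of them mouse 1 was the highest, while mouse 5 was highest on both Klk1b5 probe sets. The bright Klk1 probe sets did not follow this order: mouse 1 was the lowest of the 4-week mice there, and the SD at 4 weeks was 0.09 on 1415837_at. The mean level of 13 duct epithelium genes ran in the same order as the Klk1b genes in these mice, with 8.53, 8.35, 8.14, 7.15 and 8.47 in mice 1 to 5, and that of 4 myoepithelial genes, 9.35, 9.28, 8.89, 7.95 and 9.27, had mouse 1 highest and mice 3 and 4 lowest as well. The mean of 4 macrophage genes ran in the Klk1b order too, with 6.82, 6.55, 6.25, 5.88 and 6.81. Cd14, 1 of these 4 and itself among the genes most correlated with the members, had 8.23, 7.91, 7.08, 5.40 and 8.09. Without Cd14 the mean of the others in that list did not keep the Klk1b order, since mouse 4 was then not the lowest. The order of these others was not examined singly. The mean of the 3 measured B cell genes had mouse 4 highest and mouse 1 lowest, with 3.31, 3.41, 4.51, 5.89 and 5.10. That of the 5 measured parotid genes did not follow the Klk1b order, with 13.3, 9.84, 14.2, 14.4 and 14.1. Array quality moved along in part: mouse 4 had the lowest upper quartile of the 4-week arrays (5.34, against 5.60 to 5.75) and the lowest median correlation with its age (0.985, against 0.990 to 0.992). The part of these in the spread was not tested.

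**Figure D4:**
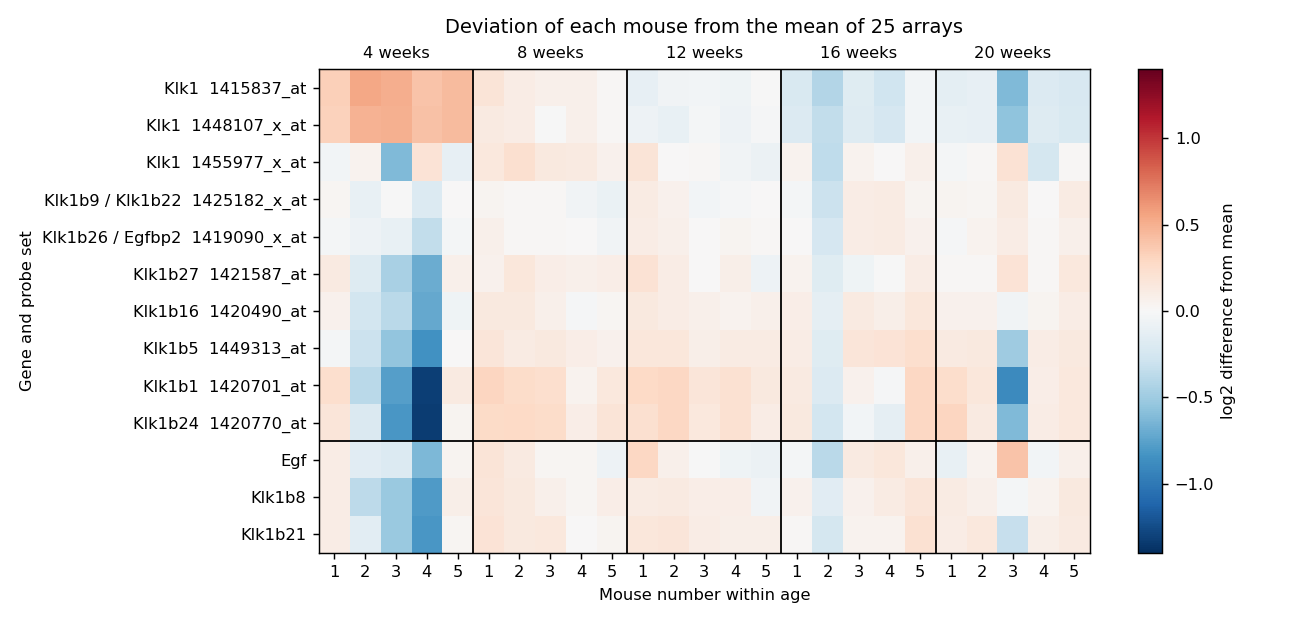
Log2 difference of each mouse from the mean of 25 arrays (colour) for 10 kallikrein probe sets and, under the line, Egf, Klk1b8 and Klk1b21 (rows), by mouse number within age (columns). Mice 3 and 4 of 4 weeks are low for Klk1b1, Klk1b5, Klk1b16, Klk1b24 and Klk1b27 and in the rows under the line. In the third Klk1 row mouse 4 of 4 weeks is not low, and for Klk1b9 and Klk1b22 mouse 3 is near the mean. Mouse 3 of 20 weeks is low for Klk1b1, Klk1b5 and Klk1b24. The upper pair of Klk1 rows is high in all 4-week mice.

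Klk1 and its copies were read on the same arrays, so the difference between their log2 signals was also taken within each mouse. It is given as a description with no test, since it was chosen once Klk1 was seen to be lower and its copies higher than at 4 weeks, and since all comparisons share the Klk1 values and the same mice of 4 weeks. Klk1 minus Klk1b16 averaged -1.19 ± 0.07 at 20 weeks and -0.45 ± 0.35 at 4 weeks (SD, n = 5 each), which differ by -0.74. Klk1 minus Klk1b5 averaged -0.99 ± 0.19 at 20 weeks and -0.23 ± 0.38 at 4 weeks. Over the 5 Klk1b genes and the 4 later ages the difference from 4 weeks lay between -0.93 and -0.48, and between -0.74 and -0.34 without mouse 4 of 4 weeks and mouse 3 of 20 weeks. Quantile normalization made it smaller, with -0.64 to -0.22 at 8 weeks, -0.81 to -0.35 at 12 weeks, -0.72 to -0.41 at 16 weeks and -0.69 to -0.48 at 20 weeks. For Klk1b16 at 8 weeks it was -0.22 after quantile normalization, against -0.50 as deposited.

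The probe sets shared between genes differed little between ages. That of Klk1b9 and Klk1b22 had 15.57, 15.44, 15.54, 15.36 and 15.54 at 4 weeks and differed from it by 0.04, 0.08, 0.04 and 0.11 at 8, 12, 16 and 20 weeks (95% confidence interval at 20 weeks -0.01 to 0.24, adjusted p = 0.614). Its direction was not stable, since after quantile normalization the differences were -0.08, -0.08, -0.04 and -0.05. That of Klk1b26 and Egfbp2 had 15.94, 16.01, 16.06, 15.97 and 16.02 at 20 weeks, against 15.92, 15.88, 15.85, 15.62 and 15.92 at 4 weeks. It differed by 0.13, 0.16, 0.13 and 0.16 (adjusted p = 0.47, 0.147, 0.436 and 0.255), with all mice of 12 and of 20 weeks above all mice of 4 weeks, as 7.9% and 1.1% of probe sets were. After quantile normalization it differed by 0.15, 0.21, 0.23 and 0.20 and passed at each age (highest adjusted p = 0.00316). These probe sets lay between 15.25 and 16.07 in all 25 mice, on arrays whose highest value was 16.5 to 16.9, and how far the top of the scale narrows such differences was not measured.

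Among the ages after 4 weeks no difference of a member passed, though the mean of Klk1 was lower at each age than at the one before. Between 12 and 8, 16 and 12, and 20 and 16 weeks no member passed. Few genes did at all: 0.0055% rose and 0% fell at 12 against 8 weeks, 0% rose and 0.0055% fell at 16 against 12 weeks, and 0.011% rose and 0.0165% fell at 20 against 16 weeks. For 20 against 8 weeks Klk1 was the member nearest to the threshold, with -0.26 and no overlap (adjusted p = 0.0877, where 0.022% of genes rose, 0.0605% fell and 1.24% lay lower with no overlap), and the 5 Klk1b genes differed by -0.25 to -0.02. On 1415837_at the 20-week mice differed from those of 8 weeks by -0.35 (95% confidence interval -0.51 to -0.19, adjusted p = 0.129), a step of the size seen between 8 and 4 weeks on that probe set. At 20 weeks mouse 3 stood far below the other 4 for Klk1b1 (14.15, against 15.14 to 15.29), Klk1b5 (15.06, against 15.66 to 15.68) and Klk1b24 (14.07, against 14.80 to 14.99), but not for Klk1b27, where it was the highest at 15.22. In that mouse the duct epithelium list averaged 6.59, against 8.40 for the median of its age.

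Across the 25 arrays the Klk1b genes with a probe set of their own were correlated with each other. Pairs among Klk1b1, Klk1b5, Klk1b16 and Klk1b24 correlated at r = 0.89 to 0.98, and their correlations with Klk1b27 were 0.75 to 0.90. The shared probe set of Klk1b9 and Klk1b22 correlated less with these genes (0.34 to 0.57) than that of Klk1b26 and Egfbp2 did (0.59 to 0.82). The bright Klk1 probe sets correlated with the same genes at r = -0.53 to -0.17 over all arrays, and the third Klk1 probe set at 0.14 to 0.38. Once the mean of each age was taken away, the pairs with a bright Klk1 probe set came to 0.17 to 0.53, except for Klk1b27 at -0.13 and -0.17. These points share arrays and scaling, and cross-hybridization between copies would also raise them, so they are given as a description.

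Other products of the granular ducts had higher means at the later ages than at 4 weeks, without passing the test, except that Klk1b11 turned to -0.04 and -0.01 at 16 and 20 weeks after quantile normalization. Of 7 such genes listed, 4 were measured here: Egf, the growth factor itself, and Klk1b8, Klk1b11 and Klk1b21, which are Klk1b copies themselves, while the other 3 were on no probe set of their own. None of the 4 passed at any age, with median differences from 4 weeks of 0.30, 0.29, 0.22 and 0.27 at 8, 12, 16 and 20 weeks, against -0.03, -0.03, -0.02 and 0.04 over all genes and 0.10, 0.14, 0.02 and 0.06 over expressed genes. Klk1b8 came nearest, with 0.40, 0.38, 0.35 and 0.37 (adjusted p = 0.0772, 0.0544, 0.119 and 0.107), and after quantile normalization it passed at 12, 16 and 20 weeks with 0.30, 0.35 and 0.32 (adjusted p = 0.0385, 0.0153 and 0.0271). Egf had 14.39, 14.54, 14.89, 14.45 and 14.56 at 20 weeks, against 14.59, 14.33, 14.30, 13.86 and 14.53 in mice 1 to 5 of 4 weeks, with mouse 4 again lowest, and differed by 0.25 (adjusted p = 0.441). In Egf mouse 3 of 20 weeks was the highest of its age, unlike in Klk1b1, Klk1b5 and Klk1b24.

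The kallikrein genes outside this family, such as the skin and nervous system kallikreins, were near background. Of 13 listed, 11 were measured, 1 (Klk6, mean 3.29) was above the cutoff and none passed at any age. Among genes of hormone action, 5 of 9 listed were measured. Thra, the thyroid hormone receptor alpha, rose at 12 weeks (0.35, adjusted p = 0.0122) and 16 weeks (0.31, adjusted p = 0.0399), and Fkbp5, a gene that glucocorticoids and androgens induce, differed by 1.18, 1.52, 0.90 and 0.17 without passing (adjusted p = 0.271, 0.0719, 0.461 and 0.911). Of 13 genes of the kinin pathway and of growth factor and protease-activated receptors, 10 were measured, 5 were above the cutoff and none passed. Those below it included the kininogen gene Kng1 (mean 2.70) and the kinin receptor genes Bdkrb1 (2.35) and Bdkrb2 (2.26). Of 10 kallikrein inhibitor genes 7 were measured and only Serpinf1 was above the cutoff, and the call among them was Serpina1b, below the cutoff at a mean of 2.35, which fell at 12 weeks (-0.58, adjusted p = 0.0279).

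Markers of other gland cells moved beside these results. All 13 duct epithelium genes were above the cutoff, and their mean level per mouse ranged from 7.15 to 8.53 at 4 weeks, 8.53 to 8.84 at 8 weeks, 8.74 to 8.96 at 12 weeks, 8.34 to 8.85 at 16 weeks and 6.59 to 8.81 at 20 weeks, on the log2 scale. Of these, Cftr, a chloride channel, rose at 8, 12 and 20 weeks (0.99, 0.89 and 1.28). Scnn1b, a subunit of the epithelial sodium channel, rose at 12 weeks (0.94). No other gene of this list passed at any age, and 1.48%, 5.66% and 1.14% of all genes rose at 8, 12 and 20 weeks. The median difference of the 13 from 4 weeks was 0.57, 0.80, 0.38 and -0.11 at 8, 12, 16 and 20 weeks, so Cftr at 20 weeks was unlike the list. All 4 fibroblast genes were above the cutoff and fell at 12 and 16 weeks, 3 of them at 8 and 20 weeks. Of all genes, 0.78%, 1.36%, 1.68% and 1.52% fell at 8, 12, 16 and 20 weeks. Fibroblast levels were 7.99 to 8.81 at 4 weeks and 5.38 to 6.42 at 16 weeks. The 5 measured parotid genes did not pass at any age, but their level ranged widely within each age, from 9.84 to 14.4 at 4 weeks and from 10.2 to 14.5 at 20 weeks. The 2 measured sublingual genes averaged 6.79 in mouse 5 of 16 weeks and 10.5 in mouse 3 of 20 weeks. The medians of those ages were 12.3 and 12.2. The 3 measured B cell genes averaged 8.98 in mice 3 and 4 of 16 weeks, against a median of 3.40 for that age. Gland composition was not measured. With the parotid level as a covariate the same number of members passed at 8, 16 and 20 weeks, and at 12 weeks Klk1b5 came to an adjusted p of 0.0504. The part of the duct, fibroblast, sublingual and B cell levels in the kallikrein differences was not tested.

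The genes outside the family that tracked its 6 members most closely over the 25 arrays, by Pearson correlation with the mean of their standardized values, were Fa2h (r = 0.96), Lcn2 (0.94), Cd14 (0.94), Slc25a26 (0.92), Bcl2l14 (0.92), Car13 (0.92), 2610528J11Rik (0.91), Serpinb1a (0.91), Lgals3 (0.90) and Mcam (0.90). Since 5 of the 6 members are Klk1b genes, this mean follows them and not Klk1. After the mean of each age was taken away the list was led by Lgals3 (0.94), Fa2h (0.94), Lcn2 (0.92), Prss23 (0.91) and Rph3al (0.91), followed by Cd14, Gsto1, Slc25a26, Klhdc8a and Bcl2l14 (0.90 to 0.91). Fa2h, a fatty acid hydroxylase, had 11.29, 10.81, 10.36, 9.36 and 11.22 in mice 1 to 5 of 4 weeks, the order of the Klk1b genes, and averaged 11.42 at 8 weeks. Lcn2, which encodes the iron-carrier-binding protein lipocalin, had 12.04, 10.95, 9.67, 9.39 and 11.43 in the same mice and averaged 11.70 at 8 weeks. Both genes were picked by their correlation with the members, so a like order of the 4-week mice was favoured by the choice. Without mouse 3 of 20 weeks the correlations of Fa2h and Lcn2 over all arrays were 0.95 and 0.94.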

How the data were processed

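Salivary gland RNA of 25 mice (5 per age) had been hybridized to 1 array each. The deposited values are log2 signals per probe set, made by the authors with GCRMA per the study's methods, while the processing notes name RMA, with no version. Its version is not given in the sources used here. In all, the deposited table held 45101 probe sets, of which 64 were array controls, and no value was rescaled. Of these, 34958 had 1 gene symbol in the platform annotation, 932 had several and 9211 were not listed. A gene was the mean of its probe sets with 1 symbol whose mean over 25 arrays was above 3.27, or of all where none was. Probe sets with several symbols entered only the fit on probe sets.

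A single model over all ages was fitted with limma 3.58.1 (R 4.3.3; lmFit, eBayes, two-sided, Benjamini-Hochberg over all 18194 genes or 45037 probe sets, threshold 0.05). The B-statistic used polynomials of age with a prior share of 0.01. Alignments used Python 3.11.15 and Biopython 1.88. The fit was tested on simulated data. Alternatives were the mean of all or the brightest probe set, expressed genes only, quantile normalization, array weights, a trended robust prior, a replicate block, a fit of the compared ages alone, the parotid level as a covariate, a prior share of 0.05, and leaving out each array.

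Members and gene lists were chosen with earlier results of these data known. By rule the text names all members, up to 4 genes each of the lists of granular duct products, other kallikreins and hormone action, the 10 genes most like the members, and markers that moved beside a result. Kng1, Bdkrb1, Bdkrb2, Serpinf1 and Serpina1b were named, and the ratio of Klk1 to its copies, its quantile-normalized form and that of the granular duct products, and the set without 2 arrays were added, after the values were seen. The labels call the samples biological replicates, and each was 1 mouse. Array values have no read depth, and their precision is limited by the number of mice.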

Additional observations from a re-analysis of the deposited data

Results flagged for a closer look

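In 4 of the 30 groups of 5 mice tested, the lowest mouse lay apart from the others by more than Dixon's critical value (0.71 of the group's range). Chance flags about 1 in 20 groups, but these groups share arrays and correlated genes, so 4 of 30 cannot be weighed against that rate. At 20 weeks mouse 3 was low for Klk1b1 (14.15, against 15.14 to 15.29 in the other mice), Klk1b5 (15.06, against 15.66 to 15.68) and Klk1b24 (14.07, against 14.80 to 14.99). At 16 weeks mouse 2 was low for Klk1b16 (15.58, against 15.79 to 15.87). Both arrays had the lowest upper quartiles of the 25 (5.19 for mouse 3 of 20 weeks and 5.20 for mouse 2 of 16 weeks), and the part of this in the low values was not tested.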

How the results depend on the processing

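Klk1 kept its direction under all alternatives, with -0.35 to -0.02 at 8 weeks (passed in 2 of 35), -0.50 to -0.19 at 12 weeks, -0.66 to -0.25 at 16 weeks and -0.70 to -0.30 at 20 weeks, and no member changed sign in a comparison with 4 weeks. Of 840 member values under an alternative, 768 kept their side of the threshold, 53 newly passed and 19 no longer passed. The counts of members or probe sets that passed did change, and the cause was not tested. The share of all genes or probe sets that passed was not taken for any alternative, leaving out arrays included. The counts below therefore cannot be read as particular to the kallikreins. For the 6 members, averaging all probe sets gave 2 at 16 weeks, and the brightest probe set 1 at 8 weeks (Klk1, lower) and 2 at 16 weeks. Quantile normalization gave 1 at 8 weeks, 3 at 16 weeks, 2 at 20 weeks, 1 for 20 against 8 weeks and 2 by the F-test, and among probe sets 1, 5, 4 and 1 in the same comparisons. Array weights gave 5, 5, 3 and 5 at 8, 12, 16 and 20 weeks, 1 for 12 against 8 weeks, 1 for 20 against 8 weeks and 4 by the F-test, and among probe sets 9, 9, 6, 8, 2 and 2. The trended robust prior gave 0 at 12 weeks, where 3773 genes had an unadjusted p under 0.05 in the limma fit reported and 3 members passed. Fitting only the ages compared gave 1 at 12 weeks and 0 at 20 weeks, with Klk1 at an adjusted p of 0.0533. Without mouse 4 of 4 weeks and mouse 3 of 20 weeks together there were 2 at 16 weeks and 2 at 20 weeks, and 5 probe sets at 12 weeks.

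Leaving out 1 array at a time gave 0 to 4 members at 8 weeks, 1 to 6 at 12 weeks, 1 to 3 at 16 weeks, 1 to 3 at 20 weeks, 0 to 1 for 20 against 8 weeks (1 without mouse 2 of 16 weeks), 1 to 3 by the F-test (3 without mouse 3 of 20 weeks) and 1 to 1 by the B-statistic. Among probe sets the ranges were 1 to 5, 2 to 8, 2 to 5 and 2 to 4 at 8, 12, 16 and 20 weeks, highest without mouse 1 of 4 weeks at 8 and 12 weeks and without mouse 3 of 20 weeks at 20 weeks. The mice share only a number between ages (median correlation of same-numbered mice -0.04), and the replicate block gave 2 members at 16 weeks, where Klk1b16 came to an adjusted p of 0.0474, and 1 probe set at 8 weeks. Signals near the top of the scale and cross-hybridization between copies limit what these arrays can show of single kallikrein genes, Klk1 included.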
